A study of Mus musculus with 57 samples.

Results

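Spleens of leukemic NHD13 mice were compared with wild-type spleens, using the 6 arrays titled NHD13 tumor and the 2 titled Wt Spleen, which are 8 of the 57 arrays of the series. NHD13 mice carry a NUP98-HOXD13 fusion gene behind the vav promoter, which is active in blood-forming cells, and their spleens were taken once signs of leukemia appeared: a hunched or thin animal, or an abnormal blood count. The wild-type tissue came from mice matched for age, littermates where possible. No animal was treated, and the labels give neither ages nor the strain of the wild-type spleens. Total RNA was extracted with Trizol from whole tissue, and 100 ng was labelled with biotin for a 1-colour Affymetrix array. Other groups of the series are used where a result turns on them: leukemic spleens of CA10 mice, which carry a CALM-AF10 fusion behind the same promoter (6 arrays), spleens of CA10 mice without signs of disease (5), wild-type whole marrow titled C57B6 (3) and other wild-type whole marrow (6). Thymus and lineage-negative marrow, that is marrow depleted of mature blood cells, of NHD13 mice without signs of disease (3 each) are also used, with wild-type thymus (7) and lineage-negative marrow (3), and so is NHD13 whole marrow (3). Whether every array stands for its own mouse is not stated, so p-values measure the spread between arrays, which may be technical.

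HOX proteins are homeodomain transcription factors that are active in stem and progenitor cells and are shut down as blood cells mature. Fusions of the nucleoporin NUP98 to HOX proteins are found in acute myeloid leukemia, where a program of HOXA genes and of their DNA-binding partners of the PBX and MEIS families is a familiar feature. The spleen filters blood through its red pulp, which is rich in macrophages, and holds B and T lymphocytes in its white pulp, laid out by stromal chemokines. In mice it is also a site of blood formation that can fill with leukemic cells. In whole tissue, fewer cells of a type and less RNA per cell cannot be told apart.

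The leukemic and wild-type spleens also differed in measures that cannot be assigned to disease, strain or labelling. The signal of the 18S ribosomal RNA control probe sets, on the deposited log2 scale, was 9.26 to 12.25 on the 6 NHD13 arrays and 5.19 and 6.28 on the wild-type arrays, and the 11 CA10 spleens lay between 6.05 and 8.39. It was 10.72 to 11.97 in the C57B6 marrows and 6.29 to 10.52 in the other wild-type marrows. The 18S signal did not single out these sets in the whole series, since the 48 arrays outside the NHD13 tumors and C57B6 marrows ran from 4.90 to 12.47. The lys spike-in control was 8.51 to 9.96 in the tumors, 5.28 and 7.21 in the wild-type spleens and 5.31 to 7.80 in the CA10 spleens. It was 8.99 to 10.53 in the C57B6 marrows and 5.08 to 8.38 in the other wild-type marrows. Over the 48 arrays it ran from 4.92 to 9.59, so it overlapped both sets. Several genes singled out these sets without overlap. Mndal, an interferon-inducible gene, was 6.23 to 8.49 in the leukemic NHD13 spleens and 8.33 to 8.88 in the C57B6 marrows, and between 3.17 and 4.77 on all 48 other arrays. Those 48 include 9 arrays of NHD13 mice without signs of leukemia, at 3.33 to 4.13. Ms4a4b, a surface protein of lymphocytes, was 5.28 to 9.50 and 9.28 to 10.01 in these sets and 3.34 to 4.32 on the other 48, and Ang, which encodes the ribonuclease angiogenin, was 7.11 to 8.68 and 7.35 to 7.97 against 3.75 to 5.77. H2-Ea, a class II chain that C57BL/6 mice are known not to make, was 6.74 to 7.34 in the leukemic NHD13 spleens, 7.03 to 7.35 in the C57B6 marrows and 7.66 to 11.50 on the other arrays. For these 4 genes neither the tumors nor the C57B6 marrows overlapped the other 48 arrays, so the tumors shared these levels with the C57B6 marrows and not with the wild-type spleens. The 4 are given because they separated the sets. For Ifi202b, Gdpd3, Malat1, Klrb1f and Rab44, read on the same arrays, the tumors overlapped the other 48. Gdpd3, for example, reached 9.61 in the tumors and began at 8.65 on the other 48. Strain, labelling and leukemia therefore cannot be told apart in the comparison with wild-type spleen alone, and the difference between C57B6 and other wild-type marrow is given beside many of the gene lists.

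**Figure D1:**
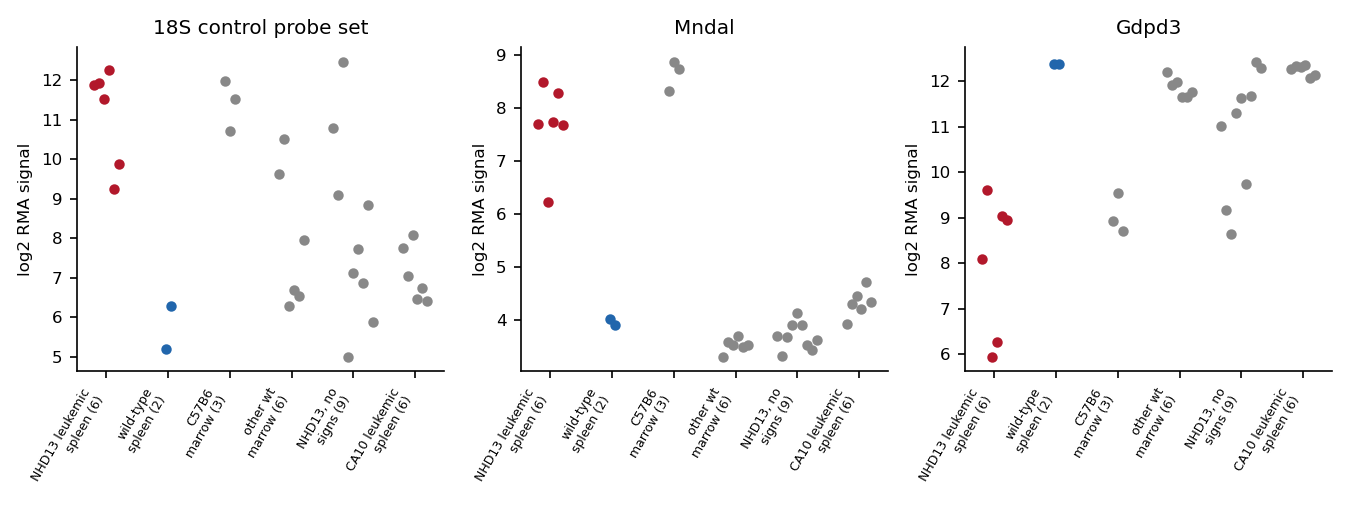
Log2 signal of the 18S control, Mndal and Gdpd3 on each array (points), by set of arrays. The 6 leukemic NHD13 spleens lie with the C57B6 marrows for Mndal (6.23 and higher against 4.77 and lower elsewhere), and their lowest 18S signal, 9.26, is above that of every other spleen.

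Of 15310 genes tested with limma, 4801 (31.4%) differed between leukemic NHD13 and wild-type spleen at an adjusted p below 0.05. More were higher, 2918 (19.1%), than lower, 1883 (12.3%). The falls were steeper, since 270 genes were lower by 2 or more on the log2 scale and 223 were higher by as much. The median log2 difference over all tested genes was 0.04. In 4451 of the called genes the 6 and the 2 arrays did not overlap, 2663 of those higher and 1788 of those lower. Lack of overlap therefore adds little to a call. Over all tested genes 6258 (40.9%) did not overlap, 22.4% higher and 18.5% lower. C57B6 and other wild-type marrow, which share no array with the spleens, differed in 2946 genes (19.2%; 14% higher and 5.20% lower). Of those calls 73.0% were higher, and after quantile normalization 59.7%. Of the genes higher in leukemic spleen, 592 were higher in C57B6 marrow too, which is 20.3% of the first list and 27.5% of the second. Of the genes lower in leukemic spleen, 272 were also lower in C57B6 marrow, 14.4% of the first list and 34.2% of the second, and 185 were higher there. When the marrow difference was subtracted from the spleen difference in 1 fit over all arrays, 1204 genes (7.86%) passed, 448 higher (2.93%) and 756 lower (4.94%). Below, this is called the marrow-corrected difference. List counts below are read against these shares of all genes. The shares higher and lower are 14% and 5.20% between the marrows, and 2.93% and 4.94% marrow-corrected. It shares the 8 spleen arrays with the direct comparison and is given as a second value for the same gene, not as independent support.

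The single 18S control bears on the whole comparison. With its signal as a covariate, a setting added after seeing the data, 16 genes passed in place of 4801, and of the genes named here 2 did, Serpina1b (adjusted p = 0.0141) and Ang (adjusted p = 0.0052). Because the 18S signal of the 6 tumors did not overlap that of the 13 other spleens, that covariate nearly repeats the grouping, and its part in the results cannot be told apart from that of the leukemia. The wild-type arm rests on 2 arrays that correlate at 0.981, and 2368 genes passed without the first and 2148 without the second. The marrow-corrected count was 637 and 306 in turn, and the marrow count itself was 1534 to 1932 with 1 of the 3 C57B6 arrays left out.

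The HOX genes that rose were few and their rises large. Hoxa9, the HOX gene most closely tied to myeloid leukemia, was 7.47, 9.39 and 10.16 at the lowest, median and highest of the tumors and 4.27 and 3.96 in the wild-type spleens. Every tumor was thus far above both wild-type arrays, and the difference was 5.08 ± 0.71 on the log2 scale (SE; 33.8-fold, adjusted p = 1.05e-04). Hoxc4 was 6.57, 8.45 and 9.79 against 5.20 and 4.97, again without overlap, a rise of 3.29 ± 0.51 (adjusted p = 2.43e-04). Hoxa7 was 7.46, 7.93 and 8.46 against 6.26 and 6.76, a smaller rise of 1.44 ± 0.32 (adjusted p = 0.0027) that did not pass without wild-type spleen 1 (adjusted p = 0.0658). Marrow-corrected differences were 4.32 for Hoxa9 (adjusted p = 0.023), 3.10 for Hoxc4 (6.92e-04) and 1.80 for Hoxa7 (0.00417). By cluster, 2 of 8 tested HOXA genes rose (median difference 0.35 over the 8), 1 of 5 HOXC genes (median 0.75), 0 of 6 HOXB genes (median 0.25) and 0 of 3 HOXD genes (median 0.13), against 19.1% higher among all genes and a median of 0.04. No HOX gene fell.

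Several other HOX genes varied between tumors or between probe sets. Hoxa10 was 6.02 in NHD13 tumor 4 and 3.68 to 4.84 in the other 5, with wild-type spleens at 3.79 and 3.63 (difference 0.82, adjusted p = 0.303). Hoxc8 ranged from 3.75 to 7.99 in the tumors against 3.61 and 3.82 (difference 1.58, adjusted p = 0.0893). Hoxa5 did not pass on the probe set used, at 0.33, whereas its other probe set read 8.28 ± 0.65 in the tumors (SD, n = 6) and 5.80 ± 0.19 in the wild-type spleens (SD, n = 2), a difference of 2.48. The partners of the fusion itself did not pass: Hoxd13 was 4.65 to 5.39 against 4.78 and 5.06, and Nup98 differed by 0.42 (adjusted p = 0.122). Mllt10, whose human counterpart encodes AF10, differed by -0.24 (adjusted p = 0.656). Where these probe sets lie relative to the fusion point was not examined, so they do not check the transgene.

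Among the partners of HOX proteins, Pbx3 rose and Meis1 did not pass. Pbx3 was 10.31, 10.91 and 11.43 in the tumors and 7.64 and 7.69 in wild-type spleen, a difference of 3.24 ± 0.81 (9.48-fold, adjusted p = 0.00608), and its second probe set gave 3.25. Tumor and wild-type values lay far apart and varied little within these groups. The SE, however, pools all 4 spleen groups, among them the CA10 tumors, where this gene spread more widely. The call was lost without either wild-type array, which leaves 1 array in that arm. Meis1 ranged widely, from 4.48 in tumor 3 to 8.13 in tumor 5, on both sides of the wild-type values of 6.46 and 6.21 (difference 0.32 ± 0.83, adjusted p = 0.8). Meis3 fell by 0.98 (adjusted p = 9.58e-04), and no other of the 7 tested cofactors passed.

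**Figure D2:**
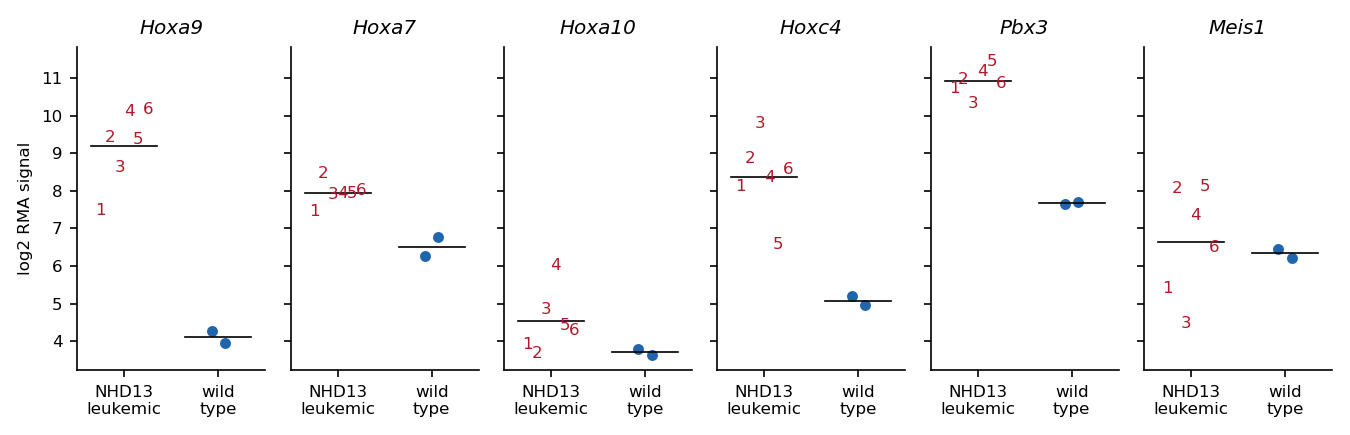
Log2 signal of 6 HOX and cofactor genes in the leukemic NHD13 spleens (numbers 1 to 6 name the arrays) and wild-type spleens (points), with lines at the group means. Hoxa9, Hoxa7, Hoxc4 and Pbx3 do not overlap between the groups, whereas Meis1 runs from 4.48 to 8.13 around the wild-type values.

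The same genes can be read in tissues of NHD13 mice without signs of leukemia. In NHD13 thymus, 117 genes (0.764%) differed from wild-type thymus, 61 of them higher (0.398%) and 56 lower (0.366%). The thymus and spleen comparisons share no array, and 23 genes were higher in both, 37.7% of the thymus list and 0.788% of the spleen list. With 1 thymus array left out the thymus count ran from 42 to 317, and with the replicate number as a block it was 1. Hoxa9 was 8.93 ± 2.49 in NHD13 thymus (SD, n = 3) and 3.90 ± 0.23 in wild-type thymus (SD, n = 7), a difference of 5.03 (adjusted p = 0.0403). Hoxc4 was 8.28 ± 0.73 against 5.12 ± 0.54 there (3.16, adjusted p = 0.00229), and Pbx3 was 10.81 ± 0.62 against 6.04 ± 0.87 (4.76, adjusted p = 2.05e-04). The thymus differences of Hoxa9 and Hoxc4 were close in size to those in leukemic spleen, and that of Pbx3 was larger than its 3.24 in spleen; these differences between tissues were not tested. Klhl4, which encodes a kelch-repeat protein, was 5.28, 7.46 and 9.34 in the tumors against 4.21 and 3.90 in wild-type spleen (3.20 ± 0.70, adjusted p = 0.00251) and differed by 4.37 in thymus (adjusted p = 2.05e-04). Mndal, Ms4a4b and Ang, which mark the arrays, differed by -0.19, -0.10 and 0.31 in thymus, none of which passed.

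Lineage-negative marrow gave few calls: 0 genes were higher and 9 lower (0.0588%) in NHD13 marrow by limma, with 506 of either sign at an unadjusted p below 0.05, and 0 to 31 calls with 1 array left out. Levels there and in whole marrow are therefore given without a claim. Pbx3 was 9.11 ± 0.49 in NHD13 and 6.87 ± 0.76 in wild-type lineage-negative marrow (SD, n = 3 each), and 10.32 ± 0.43 in NHD13 whole marrow (SD, n = 3), compared with 10.91 ± 0.38 in the tumors (SD, n = 6). Hoxc4 was 6.70 ± 0.67 and 5.03 ± 0.39 in the lineage-negative marrows and 6.96 ± 0.80 in NHD13 whole marrow. The order of both genes was tumor, then NHD13 whole marrow, then NHD13 lineage-negative marrow, and the SDs of neighbours in that order overlapped except between the NHD13 marrows for Pbx3.

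The leukemic spleens of CA10 mice place these genes. Hoxa9 was as high in CA10 tumors, 9.31 ± 1.05 (SD, n = 6), and differed from NHD13 tumors by -0.11 ± 0.50 (adjusted p = 0.889). Hoxc4 was 4.88 ± 0.29 in CA10 tumors, so that NHD13 tumors were higher by 3.49 ± 0.36 (adjusted p = 4.77e-06). Pbx3 was 6.35 ± 1.66, and the difference was 4.55 ± 0.58 (adjusted p = 3.28e-05). Meis1 went the other way, at 8.62 on average in CA10 tumors, and the difference was -1.97 ± 0.59 (adjusted p = 0.0217). Over all genes 24.7% differed between the tumor types, so a single call carries little weight against that background. This comparison shares its 6 NHD13 arrays with the comparison against wild type.

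Of 20 regulators of progenitor cells and leukemia, 5 rose and 2 fell (median 0.80), shares near the 19.1% higher and 12.3% lower of all genes, so the list as a whole did not stand out. Of the 5 rises 1 passed the marrow-corrected test. Myb, a transcription factor of immature blood cells, was 10.56, 11.41 and 11.80 in the tumors and 9.37 and 8.86 in wild-type spleen, a rise of 2.25 ± 0.54 (adjusted p = 0.00442). Myc was 8.60, 9.40 and 10.16 against 7.68 and 7.73 (1.71 ± 0.43, adjusted p = 0.00633). Neither gene overlapped between the groups, and Myc passed the marrow-corrected test too (1.70, adjusted p = 0.0243), while Myb did not (1.93, adjusted p = 0.323). Erg (2.00), Gata2 (1.90) and Runx1 (1.39), factors of stem and progenitor cells, also rose. Hlf, a stem cell factor, fell by 1.12 and Trib2, a pseudokinase, by 2.74. The receptors and surface markers of progenitors were not called: Kit differed by 1.25 (adjusted p = 0.141), Cd34 by 1.77 (0.13) and Flt3 by -0.11 (0.937). With wild-type spleen 1 left out, 1 gene of this list was higher, and with the other left out none was.

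Of 10 myeloid transcription factors, 3 rose (median 1.10), against 19.1% higher among all genes. Cebpb and Cebpd, 2 C/EBP factors of granulocytes and monocytes, rose by 2.46 (adjusted p = 0.00706) and 2.37 (0.0152), and Id1, an inhibitor of basic helix-loop-helix factors, rose by 2.23 (7.35e-04). Cebpa, which starts granulocyte differentiation, was 5.63 to 8.92 against 7.90 and 7.68 and differed by 0.13 (adjusted p = 0.906). Irf8 differed by -1.10 and Spi1 by 0.14, neither of which passed. None of the 10 passed the marrow-corrected test. Without NHD13 tumor 3, 5 of the 10 rose, and without either wild-type spleen 1 did.

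Primary granule genes, whose products are packed into granules at the promyelocyte stage, were among the largest rises. Of 10 tested, 6 rose and none fell, with a median of 2.27, against 19.1% higher among all genes. Ctsg, the protease cathepsin G, was 9.47, 12.66 and 13.50 in the tumors against 7.32 and 7.08, a rise of 5.08 ± 1.30 (33.8-fold, adjusted p = 0.00703). Ms4a3, a membrane protein of granulocyte-monocyte progenitors, rose by 5.03 ± 1.35 (adjusted p = 0.0093), and Prtn3, proteinase 3, by 4.44 ± 1.32 (0.0168). Cst7, the protease inhibitor cystatin F, was 9.24, 10.09 and 11.22 against 6.73 and 7.32 (3.10 ± 0.60, adjusted p = 0.00114). Mpo, myeloperoxidase, and Srgn, the granule proteoglycan serglycin, rose by 3.93 and 0.48. The call for Mpo was lost when any tumor but tumor 3 was left out, and that for Srgn without tumor 1, 3, 4 or 6. All tumors were above both wild-type spleens for Ctsg, Ms4a3, Prtn3 and Cst7, as for 22.4% of all tested genes. That held for 2663 of the 2918 genes called higher, so it adds little to these calls. None of the 10 genes was higher in C57B6 than in other wild-type marrow, and Elane, neutrophil elastase, was lower there by 2.46. The marrow-corrected median was 3.38, with 6 of 10 higher, Elane included (3.91, adjusted p = 0.0223). Leaving out either wild-type spleen left 1 of these genes past the threshold.

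Late neutrophil granule genes, switched on as neutrophils mature, had as large a median difference, 2.29, but only 3 of 14 rose, a share near the 19.1% of all genes. In C57B6 marrow 5 of the 14 were higher than in other marrow, among them 2 of the 3 that rose in spleen, and 1 of the 14 passed the marrow-corrected test. The 3 were Mmp8, a collagenase (4.26 ± 1.12, adjusted p = 0.00799), Chil3, a chitinase-like protein (3.18, 0.0342) and Itgb2l, an integrin chain (2.36, 0.0355). Lactoferrin, encoded by Ltf, was 6.97, 12.24 and 13.42 in the tumors and 8.99 and 9.48 in wild-type spleen, and differed by 2.21 ± 1.40 (adjusted p = 0.239). NHD13 tumor 3 was below both wild-type spleens for Ltf, as it was for Camp (9.10 against 10.81 and 10.70) and Ngp (9.08 against 11.17 and 11.36). Without NHD13 tumor 3, 12 of the 14 genes rose. Leaving out wild-type spleen 1 left 1, and leaving out wild-type spleen 2 left none.

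The stefin genes Stfa2l1 and Stfa3, cysteine protease inhibitors of myeloid cells, showed the steepest rises of all genes. Stfa2l1 was 7.90, 11.97 and 12.12 in the tumors against 4.89 and 4.62, a rise of 6.31 ± 1.51 (79.2-fold, adjusted p = 0.00455). Stfa3 was 7.74, 11.68 and 12.21 against 4.54 and 5.08 (6.00 ± 1.73, adjusted p = 0.014). Neither gene overlapped between the groups, as with 2663 of the 2918 genes called higher. The call for Stfa2l1 was lost without wild-type spleen 2, and that for Stfa3 without either wild-type spleen. Both were also higher in C57B6 than in other wild-type marrow, by 2.34 (adjusted p = 0.00102) and 1.92 (0.0177), and the marrow-corrected differences of 3.97 (0.0524) and 4.08 (0.104) did not pass. Both were higher than in CA10 tumors, by 3.09 (adjusted p = 0.0426) and 3.68 (0.0362). The stefin genes are near copies of each other, and these probe sets may not separate them.

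Of 17 monocyte and macrophage genes, 7 rose and 1 fell (median 1.26), against 19.1% higher and 12.3% lower among all genes. F13a1, coagulation factor XIII A made by monocytes, rose most, at 9.37, 12.19 and 12.75 against 7.50 and 7.75 (4.05 ± 1.09, adjusted p = 0.00932). The chemokines Ccl9 (3.54) and Ccl6 (2.03), the integrin Itgam (2.52), the receptors Fcgr3 (2.00) and Fcgr1 (1.26) and the chemokine receptor Ccr2 (1.94) rose as well. Ctss, cathepsin S, which trims the class II invariant chain, fell by 1.10 (adjusted p = 0.0485). Clec4e, a pattern-recognition lectin of myeloid cells named for the size of its change, was 6.50, 9.01 and 9.78 against 4.58 and 3.69 (4.43 ± 0.86, adjusted p = 0.00117; marrow-corrected 3.16, 0.0278). In C57B6 marrow 8 of the 17 genes were higher than in other marrow, so the direction is partly shared. Without either wild-type spleen, none of the 17 was higher.

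Few genes of the red pulp macrophage list passed, and those that did ran the other way. Of 15 tested, 3 fell and none rose (median -0.72), against 12.3% lower among all genes, and 2 of the 3 falls passed the marrow-corrected test. Timd4, a phosphatidylserine receptor of resident macrophages, was 4.30, 4.92 and 5.69 in the tumors and 8.85 and 9.22 in wild-type spleen, a fall of 4.15 ± 0.92 (adjusted p = 0.00276). Marco, a scavenger receptor of marginal zone macrophages, fell by 3.97 ± 1.00 (adjusted p = 0.00617), and Hmox1, the heme-degrading enzyme, by 2.76 ± 0.67 (0.00487). For all 3 genes every tumor lay below both wild-type spleens, as for 1788 of the 1883 genes called lower. Of the 15 genes, 9 lay lower and 2 higher without overlap, against 18.5% and 22.4% of all genes. Spic, the transcription factor of red pulp macrophages, was 7.47 to 8.42 against 9.57 and 8.84 (difference -1.26, adjusted p = 0.142), and Vcam1 differed by -0.72 (0.409). The 15 genes thus did not move as 1 group. Without wild-type spleen 1, 1 fell.

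Of 11 myeloid growth factor and cytokine receptors, 4 rose (median 1.46), against 19.1% higher among all genes. They were Csf2rb (2.02 ± 0.43, adjusted p = 0.00218) and Csf2rb2 (1.81), the signalling chains for GM-CSF, IL-3 and IL-5, Il1r2, a decoy receptor (2.28), and Ifngr1 (1.20). Il1r2, Csf2rb2 and Ifngr1 were higher in C57B6 marrow as well, and no gene of this list passed the marrow-corrected test. Of 9 mast cell, basophil and eosinophil genes, 4 rose (median 1.90), against the same 19.1%. Siglecf, a lectin of eosinophils, was 5.20, 7.21 and 8.07 against 3.46 and 3.91 (3.37 ± 0.64, adjusted p = 0.00102; marrow-corrected 2.53, 0.00504). Prg2, the eosinophil major basic protein (3.42), Cpa3, a mast cell protease (2.72), and Gata2 were the other 3. In C57B6 marrow 8 of the 9 genes were higher than in other marrow. Without either wild-type spleen 2 of the 11 receptors and 1 of the 9 mast cell, basophil and eosinophil genes passed, and without NHD13 tumor 3 7 receptors did.

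The 6 tumors were not alike in myeloid genes. Averaged over the 10 primary granule genes, tumor 3 had a log2 level of 9.46, near the wild-type spleens at 9.20 and 9.27, and the other 5 lay between 11.7 and 12.6. Over the late granule genes tumor 3 was at 7.76, below both wild-type spleens at 8.54, with the others at 10.7 to 12.4. Across the 15310 tested genes this array correlated at 0.889 to 0.925 with the other tumors. In mast cell genes tumor 3 was at 6.63, level with the highest of the others, and it alone carried Ms4a2, the beta chain of the high-affinity IgE receptor, at 11.47 (5.03 to 7.36 in the others, wild-type 4.81 and 5.31) and the alpha chain Fcer1a at 8.49 (3.33 to 3.86 in the others, wild-type 3.86 and 3.61). Hoxc4 was highest in tumor 3, at 9.79, and Meis1 lowest.

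Other lineages varied in other tumors. The 13 megakaryocyte and platelet genes averaged 11.2 in tumor 5 and 7.26 in tumor 3, around wild-type values of 9.45 and 9.30, and none of the 13 passed (median 0.17). The 14 erythroid genes averaged 9.08 in tumor 2 and 10.5 to 11.0 in the other 5, against 11.2 and 10.5, and none passed (median -0.27). In C57B6 marrow, 7 of the erythroid and 9 of the platelet genes were lower than in other marrow.

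**Figure D3:**
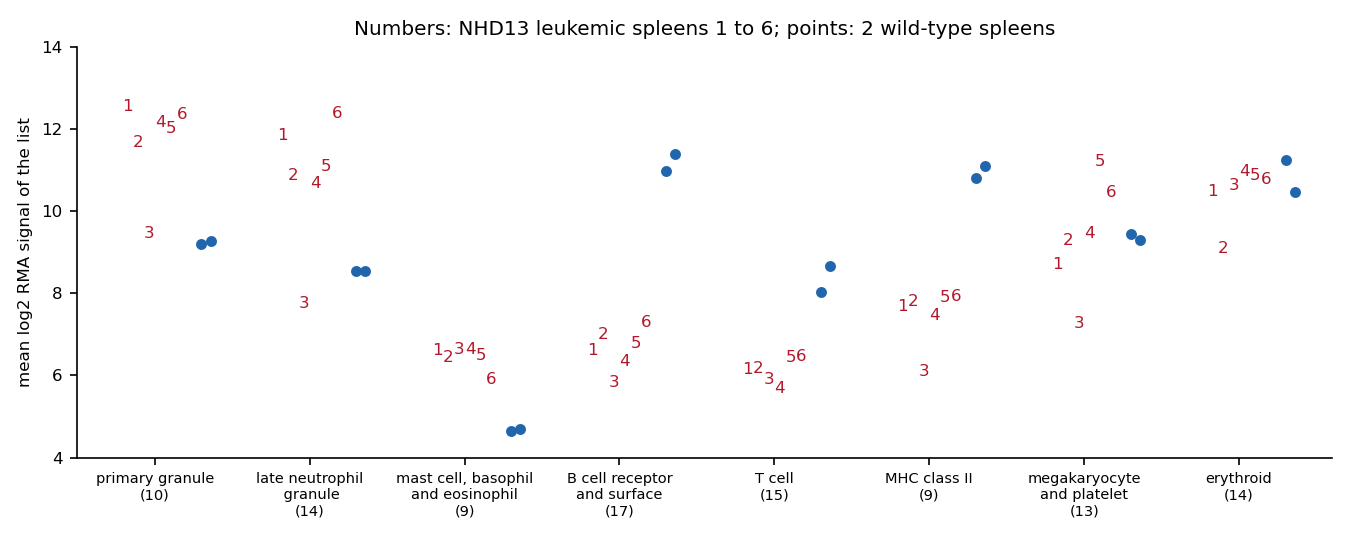
Mean log2 level of 8 gene lists on each NHD13 tumor (numbers 1 to 6) and wild-type spleen (points). Tumor 3 lies near or below the wild-type arrays in both granule lists (9.46 and 7.76), tumor 5 is highest in platelet genes (11.2), and all tumors lie below both wild-type spleens in B cell, T cell and class II genes.

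The B cell compartment showed the deepest loss. Of 17 B cell receptor and surface genes, 15 fell and none rose, with a median of -4.85, against 12.3% lower among all genes. Cd79a, a signalling chain of the B cell receptor, was 4.28, 4.78 and 5.48 in the tumors and 11.96 and 12.64 in wild-type spleen. The groups lay far apart, a fall of 7.45 ± 1.00 (adjusted p = 7.67e-05). Ms4a1, which encodes CD20, was 4.17, 5.64 and 8.05 against 12.34 and 12.64 and fell by 6.71 ± 1.19 (adjusted p = 6.05e-04). Cr2, the complement receptor of mature and marginal zone B cells, fell by 6.94, Cd22, an inhibitory receptor, by 5.69, Fcrla, an Fc receptor-like protein, by 5.46, and the kinase Blk by 4.85. The 2 genes not called were Btk (-0.29) and Cd53 (-0.93), both of which myeloid cells also express. Without either wild-type spleen 15 of the 17 passed as well. In C57B6 marrow 8 of the 17 genes were higher than in other marrow, so that the marrow-corrected median was lower still, at -5.39, with 15 of 17 lower. Cd79a, in contrast, was lower in C57B6 marrow too, by 1.80 (adjusted p = 4.54e-04).

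B cell transcription factors followed. Of 12 tested, 9 fell (median -3.22), against 12.3% lower among all genes. Spib was 4.40, 5.64 and 6.88 in the tumors and 10.44 and 11.25 in wild-type spleen (-5.25 ± 0.69, adjusted p = 6.98e-05). Pou2af1, a coactivator needed for germinal centres, fell by 5.43, Ebf1, which specifies the B lineage, by 5.06, Bach2 by 4.50, Ikzf3 by 4.09, Irf4 by 3.61 and Pax5 by 2.07. Tcf3 (0.39), Bcl11a (-0.59) and Bcl6 (-1.19) were not called. The tumors were below both wild-type spleens for each of the 7 genes that fell and are named here. That held for 1788 of the 1883 genes called lower, so it adds little to these calls.

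Antibody genes were more variable. Of 8 tested, 5 fell and 1 rose (median -1.91), against 12.3% lower and 19.1% higher among all genes. The variable segment Ighv14-2 was 4.04, 4.84 and 6.05 against 11.68 and 12.60 and fell by 7.30 ± 0.92 (adjusted p = 4.66e-05). Ighm, the IgM heavy chain, was 9.19 to 12.61 in the tumors, and fell by 2.66 (adjusted p = 0.0132) on the probe set used, although the probe sets of this gene ran from -4.75 to 2.76. Jchain, which joins IgM and IgA units, fell by 2.85, and Mzb1, a chaperone of antibody-secreting cells, by 3.25, while Xbp1, the secretory factor of plasma cells and of other cells, rose by 0.62. In C57B6 marrow 3 of the 8 were lower than in other marrow, 2 of them among the 5 falls, and 2 of the 5 falls passed the marrow-corrected test. None of the 5 falls held without wild-type spleen 1. Of 11 lymphoid precursor genes 5 fell, led by Il7r (-3.08), Vpreb3 (-2.24) and Lef1 (-2.15). Rag1, the recombinase, was at 3.76 to 4.05 in the tumors and 4.09 and 3.81 in wild-type spleen, and Dntt was 5.12 to 8.93 against 5.78 and 5.67, without a call. Without wild-type spleen 1, 3 of the 11 fell, and 3 passed the marrow-corrected test.

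T cell genes fell less far but as broadly. Of 15 tested, 13 fell (median -2.40), against 12.3% lower among all genes. Cd4 was 6.15, 6.22 and 6.64 in the tumors and 8.72 and 9.14 in wild-type spleen, a fall of 2.64 ± 0.26 (adjusted p = 4.94e-06). Cd3d and Cd3g, chains of the T cell receptor complex, fell by 3.32 and 3.20, Cd8a, the coreceptor of cytotoxic T cells, by 1.66, and Bcl11b, a factor of T cell commitment, by 2.80. Ccr7, the receptor that guides naive T cells into lymphoid tissue, fell by 3.96 ± 0.64 (adjusted p = 3.15e-04). Without wild-type spleen 2, 6 of the 15 fell. The marrow-corrected median was -2.01 with 9 of 15 lower. Gimap3 (-4.58) and Gimap7 (-3.87), GTPases of lymphocyte survival, and the receptor segment Trav9d-3 (-4.06) fell with them and were also lower in NHD13 than in wild-type thymus (-1.93, -2.18 and -2.21, adjusted p = 0.0288, 0.0415 and 0.0468).

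Of 12 NK and cytotoxic genes, 5 fell and 1 rose (median -1.26), against 12.3% lower and 19.1% higher among all genes. Ncr1, the natural cytotoxicity receptor, fell by 1.99, Klrd1 by 2.49, Tbx21 by 1.82, Gzma by 1.91 and Prf1, perforin, by 1.33. Klra8, an NK receptor whose locus is known to vary between strains, rose by 1.62 and was higher in C57B6 marrow by 2.66. Nkg7 was 5.19 to 11.03 in the tumors against 7.95 and 8.36 and was not called. Of the 5 falls 2 passed the marrow-corrected test. No call of a fall in this list held without either wild-type spleen.

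Genes of MHC class II presentation, the machinery by which B cells, dendritic cells and macrophages show peptides to CD4 T cells, fell almost together. Their promoters are known to share a module that includes a Y box, with the core ATTGG on 1 strand or the other, bound by NF-Y; the coactivator CIITA then switches the module on. To show these promoters, the 80 bases from 110 to 31 before the annotated start of 5 genes are given 5′ to 3′ on the gene's strand, from RefSeq (GRCm38.p6), with ATTGG on either strand in capitals.
H2-Aa (chr17:34287854-34287933, minus strand): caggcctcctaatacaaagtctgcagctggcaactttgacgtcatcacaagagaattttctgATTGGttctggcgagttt
H2-Ob (chr17:34238795-34238874, plus strand): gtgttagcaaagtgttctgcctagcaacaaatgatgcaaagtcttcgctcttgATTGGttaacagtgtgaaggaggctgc
H2-Oa (chr17:34092269-34092348, plus strand): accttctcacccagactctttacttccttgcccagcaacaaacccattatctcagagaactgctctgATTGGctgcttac
H2-DMb2 (chr17:34145139-34145218, plus strand): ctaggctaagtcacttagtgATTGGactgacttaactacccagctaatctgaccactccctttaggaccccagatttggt
H2-Eb1 (chr17:34305757-34305836, plus strand): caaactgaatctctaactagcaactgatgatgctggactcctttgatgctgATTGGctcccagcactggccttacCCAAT
The letters ATTGG, searched on both strands, occurred in 7 of 7 class II genes with a window of 250 bases before to 50 after the start, but also in 37.4% of all 32851 windows. The longer CTGATTGG, which contains it, occurred in 3 of the 7 (H2-Aa, H2-Eb1 and H2-Oa) and in 4.1% of all windows. A match is a description of these letters, not a site.

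Of 9 class II genes tested, 7 fell and none rose (median -4.02), against 12.3% lower among all genes. H2-Aa, the alpha chain of the I-A molecule, was 6.33, 8.55 and 9.47 in the tumors and 13.42 and 13.56 in wild-type spleen, a fall of 5.22 ± 0.56 (adjusted p = 1.43e-05). Its partner H2-Ab1 was 7.05, 8.72 and 9.38 against 12.46 and 12.57 (-4.02, adjusted p = 3.69e-05). Cd74, the invariant chain that guards the peptide groove, was 7.01, 8.34 and 8.82 against 13.03 and 13.49 and fell by 5.06 ± 0.44 (adjusted p = 1.84e-06). The groups of all 3 genes lay more than 3 apart on the log2 scale. The peptide-loading genes H2-Ob, H2-DMb2 and H2-Oa fell by 4.58, 4.37 and 3.46. Ciita, the coactivator itself, was 4.44, 5.09 and 5.24 against 7.42 and 7.56, a fall of 2.51 ± 0.44 (adjusted p = 5.32e-04). Without NHD13 tumor 3, and without either wild-type spleen, 7 of the 9 passed as well.

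The other 2 class II genes read differently against marrow. H2-Eb1, the beta chain of I-E, was 6.49 to 9.49 in the tumors and 8.78 and 8.85 in wild-type spleen, a difference of -0.44 (adjusted p = 0.631), although its promoter above holds the same letters. In C57B6 marrow it was higher than in other wild-type marrow by 3.93 ± 0.28 (adjusted p = 1.01e-07), so that the marrow-corrected difference was -4.37 ± 0.64 (adjusted p = 4.34e-06). H2-DMa differed by -1.61 (adjusted p = 0.0729), by 1.57 between the marrows, and by -3.18 after the correction (0.0012). With the marrow difference taken off, all 9 class II genes were lower, though the value for H2-Eb1 came mostly from the marrow arrays. Whether the marrow difference carries over to spleen was not tested. In CA10 tumors the genes stood near wild-type level, H2-Aa at 13.31 and Cd74 at 12.98 on average, and NHD13 tumors were lower than CA10 tumors in 8 of 9 (median -3.38, against 11.7% of all genes). In thymus, none of the 9 differed between NHD13 and wild type.

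**Figure D4:**
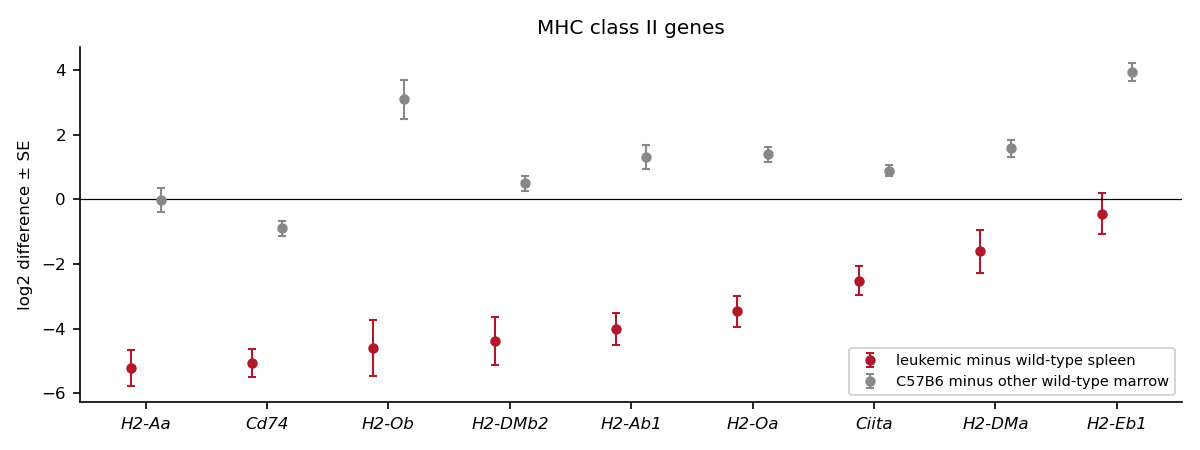
Log2 difference ± SE of 9 class II genes between leukemic NHD13 and wild-type spleen (red) and between C57B6 and other wild-type whole marrow (grey). In 7 genes the spleen difference is -2.51 or lower, while H2-Eb1 is near 0 in spleen (-0.44) and 3.93 in marrow.

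Class I presentation genes, used by nearly all cells, fell less. Of 10 tested, 4 fell (median -0.66), against 12.3% lower among all genes. H2-D1 was 11.15, 11.90 and 12.28 in the tumors and 13.11 and 13.08 in wild-type spleen (-1.25, adjusted p = 5.14e-04), H2-K1 fell by 1.26 (5.72e-04), Tap1, a peptide transporter, by 1.01, and B2m, the light chain, by 0.51. Each tumor lay below both wild-type spleens for H2-D1 and H2-K1, as for 18.5% of all tested genes and 1788 of the 1883 called lower. In C57B6 marrow 6 of the 10 were higher than in other marrow, 1 of them among the 4 falls, and 1 of the 4 falls passed the marrow-corrected test. Of 13 dendritic cell genes, 4 fell: Cd83 (-3.08 ± 0.47, adjusted p = 2.15e-04), Itgax, which encodes CD11c (-3.01 ± 0.66, 0.0026), Ccr9 (-2.28) and Batf3 (-1.48). The median over the 13 was -0.86, and the share lower among all genes is the same 12.3%. Without either wild-type spleen, 2 genes of each list passed.

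Among 16 genes of lymphoid tissue stroma and its chemokine axis, 6 fell and 1 rose (median -0.92), against 12.3% and 19.1% of all genes. Cxcl13, the chemokine by which follicular stroma attracts B cells, was 6.53, 6.76 and 8.04 in the tumors and 11.09 and 11.07 in wild-type spleen, a fall of 4.14 ± 0.85 (adjusted p = 0.00167). Its receptor Cxcr5 was 3.88, 4.02 and 4.97 against 9.56 and 10.24, a fall of 5.72 ± 0.87 (adjusted p = 2.15e-04). Ltb, lymphotoxin beta, which lymphocytes use to maintain that stroma, fell by 3.84, and Madcam1, an adhesion molecule of the marginal sinus, by 1.69. Cxcl13, Cxcr5 and Ltb thus all fell, while 9 of the 16 genes were not called, and a link between these falls was not tested. Nkx2-5 (-0.80) and Tlx1 (-1.18), homeobox genes of spleen development, fell by less, and Cdh5, the cadherin of endothelium, rose by 0.84. The marrow-corrected test was passed by 4 of the 6 falls. Collagen genes were not called, Col1a1 at 0.22 and Col3a1 at -1.03.

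Genes of cell division were higher as a group of small and moderate rises. Of 19 mitotic genes, 11 rose and none fell (median 1.25), and of 19 DNA replication genes also 11 rose and none fell (median 0.83), against 19.1% higher among all genes. Kif20a, a mitotic kinesin, was 8.45, 9.01 and 9.16 in the tumors against 6.85 and 6.27 (2.38 ± 0.45, adjusted p = 9.61e-04). Ttk, a spindle checkpoint kinase, rose by 2.50 and Aurkb by 2.00. The wild-type spleens differed from each other here, at a mean of 9.22 and 8.26 over the mitotic genes, with the tumors at 9.88 to 10.3. Cdc45 and Gins1, parts of the replicative helicase, both rose by 1.87, but neither passed without wild-type spleen 2 (adjusted p = 0.0687 and 0.115). Without that array no replication gene passed and 4 mitotic genes did. None of the 19 mitotic genes passed the marrow-corrected test (median 1.54), and 5 replication genes did, Gins1 among them (2.55, adjusted p = 0.0284). Mki67, a common marker of cycling cells, differed by 0.08, and Pcna by 0.15.

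Genes of biosynthesis rose in the same way, read against the same 19.1% higher among all genes. Of 15 ribosome assembly and nucleolar genes, 10 rose and none fell (median 0.80), led by Nop58, a core protein of small nucleolar particles, at 9.95, 10.46 and 11.45 against 8.32 and 7.90 (2.37 ± 0.31, adjusted p = 5.70e-05), and Wdr12 (2.04). Of 12 serine and one-carbon genes, 7 rose (median 0.88). Psat1, which makes phosphoserine, was 9.43, 9.98 and 11.28 in the tumors and 6.49 and 6.93 in wild-type spleen, a rise of 3.45 ± 0.45 (10.9-fold, adjusted p = 6.73e-05; marrow-corrected 2.84, 0.00546). The mitochondrial folate enzyme Mthfd1l rose by 1.32 and Shmt2 by 1.34. Of 12 glycolysis genes, 6 rose (median 0.99), among them Pgam1 (2.34 ± 0.41, adjusted p = 5.27e-04), Pgk1 (1.35) and Ldha (0.98). For Psat1, Nop58, Pgam1, Pgk1 and Ldha every tumor was above both wild-type spleens, and the calls held with any 1 of the 8 arrays left out. In C57B6 marrow 5 glycolysis genes were higher and 2 lower than in other marrow, and 2 of the higher ones were among the 6 rises. The marrow-corrected test was passed by 1 of the 6 glycolysis rises, 2 of the 10 nucleolar rises and 3 of the 7 serine and one-carbon rises. Without wild-type spleen 1, 5 nucleolar and 2 serine and one-carbon genes passed.

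Stress and signalling lists moved little as a whole. Of 14 genes of the BCL2 family and p53 targets, 2 rose and 1 fell (median 0.12), no larger a share than among all genes. Bcl2l11, which encodes the death-promoting protein BIM, was 7.29, 8.53 and 9.21 in the tumors and 10.99 and 10.34 in wild-type spleen, a fall of 2.18 ± 0.40 (adjusted p = 7.35e-04). Cdkn1a, which encodes the cell cycle inhibitor p21, rose by 2.20 (adjusted p = 0.00306; 0.062 without wild-type spleen 2), and Ccng1 by 0.80. Mcl1 differed by -0.68 and Bcl2 by -1.01, without calls. Of 16 immediate early genes, 4 fell (Klf2 by 2.04, Jund by 1.35, Egr2 by 0.97 and Junb by 0.96) and 2 rose (Ier3 by 1.54 and Ier2 by 0.75). Among all genes 12.3% fell and 19.1% rose. Of 17 interferon response genes only Mndal rose (3.72), and Stat2 (-1.63) and Ifi202b (-2.57) fell. Mndal and Ifi202b also separated the C57B6 from the other wild-type marrows, by 5.12 and -4.27.

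Serpina1b, an alpha-1-antitrypsin gene best known from liver, was the largest fall of all. It was 3.63, 3.86 and 4.31 in the tumors and 11.26 and 11.80 in wild-type spleen, a fall of 7.60 ± 0.57 (adjusted p = 3.27e-07), and its second probe set gave -7.60. Tumors and wild-type spleens were thus at opposite ends of the scale. CA10 tumors were at 10.13 ± 1.13 (SD, n = 6) and CA10 spleens without disease at 10.94 ± 0.61 (SD, n = 5), so it was the NHD13 tumors that stood apart among spleens. Wild-type thymus was at 9.44 ± 1.20 and the 5 marrow groups named above lay between 3.87 and 4.81 on average. Serpina1c fell by 2.94 (adjusted p = 1.22e-04). The other 6 liver genes were not called, albumin (Alb, -0.39) among them, nor was any of 8 exocrine pancreas genes (median -0.22). The Serpina1 genes are near copies, and these probe sets may not separate them. C57B6 and other wild-type marrow differed by -0.82 for Serpina1b (adjusted p = 0.0589), where both are low.

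Some large changes ran in the same direction as the marrow difference. Gdpd3, a phospholipase, was 5.95, 8.52 and 9.61 in the tumors and 12.38 in both wild-type spleens (-4.40, adjusted p = 2.29e-04), and lower by 2.81 in C57B6 marrow. Mfsd13a, a transporter-like protein, rose by 5.00 and was higher by 1.29 in C57B6 marrow, and Apoc2, an apolipoprotein, rose by 4.04 and was higher by 1.03. The marrow-corrected differences were -1.59 for Gdpd3 (adjusted p = 0.164), 3.70 for Mfsd13a (0.0124) and 3.01 for Apoc2 (0.0262). Mfsd13a and Apoc2 thus passed with the marrow difference removed, and Gdpd3 did not.

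**Figure D5:**
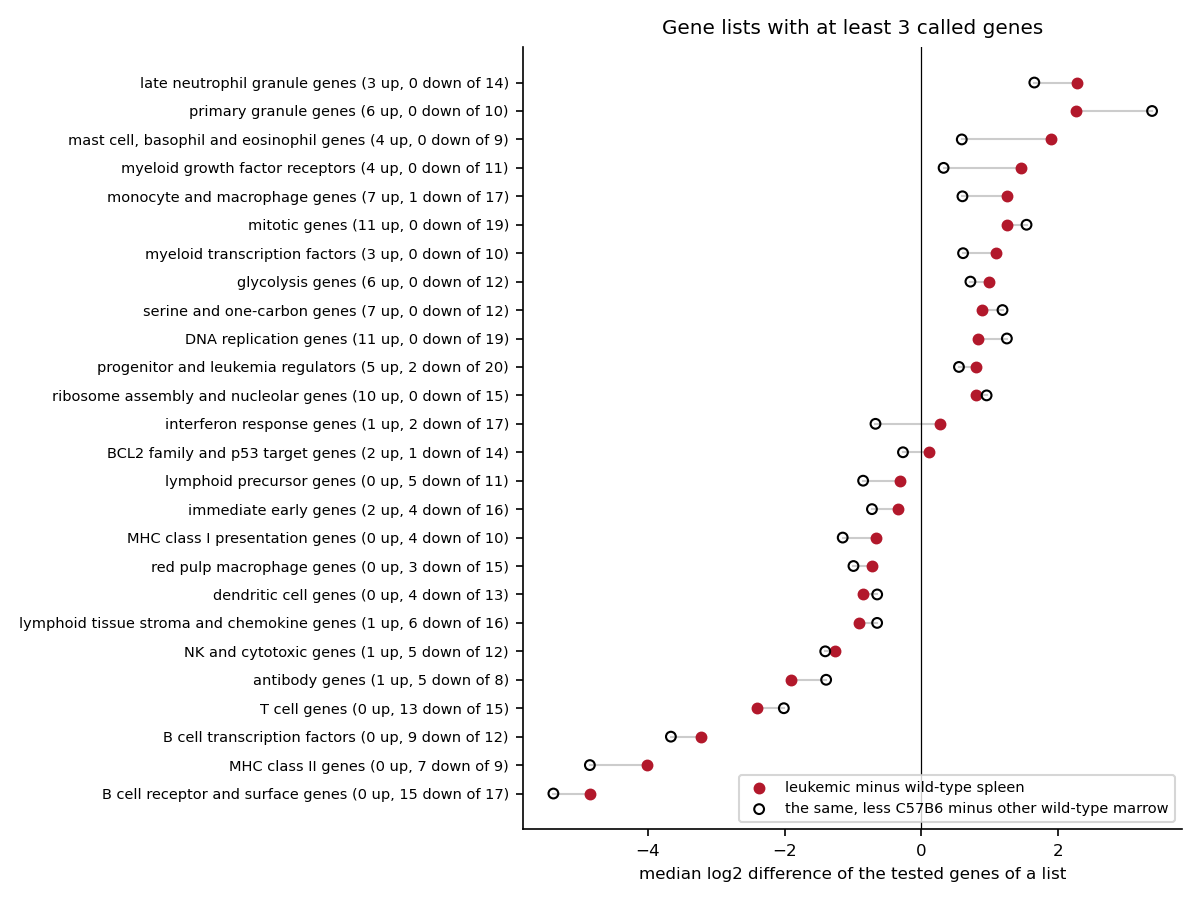
Median log2 difference of each gene list with 3 or more called genes, between leukemic NHD13 and wild-type spleen (filled) and after subtracting the difference between C57B6 and other wild-type marrow (open). B cell (-4.85 and -5.39) and class II (-4.02 and -4.85) lists are lowest, and the primary granule list reaches 2.27 and 3.38.

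Set side by side, the lymphoid lists also lay lower in NHD13 than in CA10 tumors, with 11 of 17 B cell surface genes (median -2.23) and 7 of 15 T cell genes (median -0.88) lower, against 11.7% of all genes. Dendritic cell genes were lower in 11 of 13 (median -2.44), and class I genes in 10 of 10 (median -1.09). The dendritic list averaged 8.17 to 9.11 in CA10 tumors, above wild-type spleen at 7.53 and 7.68, and 6.11 to 7.12 in NHD13 tumors. Class I genes averaged 10.66 to 11.37 in CA10 tumors, 10.71 and 10.69 in wild-type spleen and 9.19 to 10.25 in NHD13 tumors. The granule lists differed little, with medians of 0.17 and 0.18 and 1 gene higher in each. Mitotic genes were higher in 7 of 19 (median 0.60) and nucleolar genes in 7 of 15 (median 0.47), against 13% of all genes. These values share the 6 NHD13 arrays, with their 18S and strain-type marks, with the comparison against wild type.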

How the data were processed

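The deposited values are log2 signals of 44943 probe sets on 57 one-colour arrays, which the authors produced by RMA according to the submitters' processing notes, with no version named. They ranged from 2.58 to 14.65 and array medians from 5.44 to 5.85. Array data carry no read depth, so the number of arrays limits the precision. Probe sets were named through GEO's platform annotation, updated by gene identifier: 34842 had 1 gene, 931 several, 9106 none, and 64 were controls. The probe set with the highest mean stood for each of 18165 genes. Genes above the 40th percentile on at least 3 arrays, 15310, were tested with limma 3.58.1 (R 4.3.3; lmFit and eBayes, two-sided, Benjamini-Hochberg adjustment over all tested genes, called below 0.05). The spleen fit held all 4 spleen groups and the marrow-corrected fit all 57 arrays. SEs and p-values therefore pool the spread within all groups of a fit, not only those compared. Tested on simulated data for leukemic NHD13 against wild-type spleen (15310 genes), the test recovered 45% of changes of 1 and 84% of changes of 2 on the log2 scale (100 genes each), with 4 false calls. The simulated noise was independent and normal, with 1 SD per gene for all groups. Few genes were changed and no difference between sets of arrays was included, so these rates need not hold for the data.

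Gene lists (38, holding 509 genes, 428 of them tested) and the comparison itself were chosen with earlier results of these data known. Named genes were the 15 largest called rises and falls without overlap between the arrays, up to 6 in each direction that also passed in marrow, in the marrow-corrected fit, or against CA10 tumors, NHD13 thymus or lineage-negative marrow, up to 6 of each list by adjusted p, all HOX, cofactor and fusion partner genes, and the 6 called genes with the largest SD between tumors; other members of a list are named by their log2 difference only. For the IgE receptor chains Fcer1a and Fcer1g and for Camp, Ngp and Ltf the naming followed their values. Of 124 named genes with several probe sets, 30 had probe sets of opposite sign, among them Runx1, Erg, Cdc45, Kif23, Foxo1, Mfsd13a, Ms4a4b, Tap1, Prf1 and Ighm. Of 4 sex-linked genes none was called. Sex was inferred from the signal of Eif2s3y against Xist. By that reading the tumors were 3 male and 3 female and the wild-type spleens 1 of each. The C57B6 marrows were 3 male and 0 female, and the other wild-type marrows 3 male and 3 female. The marrow difference, and with it the marrow-corrected values, is therefore not balanced for sex. The alternatives were other filters, probe set means, quantile normalization, eBayes settings, model sizes, the replicate number as a block, sex and the Gapdh 3′ to 5′ ratio as covariates, and each array left out, with 2 more added after seeing the data. Promoter windows are RefSeq's.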

Additional observations from a re-analysis of the deposited data

Results flagged for a closer look

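Chance alone sets 1 value apart in about 1 group in 20. Here 29 of 244 named genes and 10 of 38 list means had 1 NHD13 tumor whose distance from the nearest other exceeded the range-based limit for 6 values, and 24 of these 39 concerned tumor 3. In tumor 3 the genes Ctsg (9.47), Prtn3 (9.49), Mpo (8.89), Hp (8.45), Chil3 (10.23), Lcn2 (7.97), Cst3 (10.55), Apoc2 (5.95), Klf4 (5.86), Hk2 (7.34) and Mndal (6.23) were lowest. In the same tumor Ms4a2 (11.47), Syce2 (12.34), Cela1 (12.38), Hoxc9 (7.45) and Pbx4 (5.85) were highest. Its list means were lowest for primary granule genes (9.46), late granule genes (7.76), monocyte genes (8.0), NK genes (4.81), class II genes (6.09), class I genes (9.19) and glycolysis genes (9.94), and highest for serine and one-carbon genes (9.96).

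Tumor 6 stood above the others for the B cell genes Cr2 (5.47), Cxcr5 (4.97) and a kappa light chain variable segment (6.31) and the stromal Cxcl13 (8.04), and below them in its mean over mast cell, basophil and eosinophil genes (5.90). Tumor 2 was lowest in the erythroid list (9.08) and in Rhag (7.81), Klf1 (8.79) and Tfrc (10.70). Tumor 5 was lowest for Cebpb (8.71), Kif20a (8.45) and Mllt10 (7.54), highest for Cd4 (6.64) and stood apart for Mcl1 (10.14), and tumor 4 was highest for Mcm4 (11.33).

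Between the leukemias, NHD13 minus CA10 tumors, the limma test of the difference itself called Stfa2l1 (3.09), Stfa3 (3.68), Mfsd13a (2.06), Ms4a4b (4.32), Mndal (3.37) and Ang (3.37) higher in NHD13. It called Serpina1b (-6.20), Cd79a (-3.84), Ighv14-2 (-4.15), Cr2 (-2.64), Ms4a1 (-3.37) and Srpk3 (-1.74) lower. Outside the gene measurements, the 18S control had a median of 11.7 over the 6 NHD13 tumors, above every wild-type and CA10 spleen.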

How the results depend on the processing

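For leukemic NHD13 against wild-type spleen (4801 genes called), 3045 passed with all 57 arrays in the model, 2148 to 5020 with 1 array left out (2368 and 2148 when the first or second wild-type spleen was dropped), and 16 with the 18S signal as a covariate, which was chosen after seeing the data; the difference of B2m then turned to 0.0188. Dropping those arrays ended 68 and 74 of 170 named calls. After quantile normalization 51.7% of calls were higher, against 60.8%. The C57B6 against other marrow count (2946) was 1625 with only the groups compared, 1612 with all 57 arrays and 1534 to 4271 with 1 array left out. The marrow-corrected count (1204) was 1827 after quantile normalization, 2202 with wild-type marrows 4 to 6 as the only other marrows, 2512 with spleen and whole marrow arrays alone (chosen after seeing the data) and 306 to 1301 with 1 array left out. NHD13 against CA10 tumors (3782) gave 2267 with all 57 arrays and 2994 to 3892 with 1 left out. Lineage-negative marrow (9) gave 0 after quantile normalization, 0 with only the groups compared, 43 with all 57 arrays and 0 to 31 with 1 left out. Thymus (117) gave 232 after quantile normalization, 543 with all 57 arrays and 42 to 317 with 1 left out. Apart from the replicate block, given below, the other alternatives kept each count within 1.5 times. Where a lone wild-type spleen remained, it was assumed to vary like the other groups. The cause of these shifts was not tested. Replicate numbers are shared by both spleen groups for 2 pairs only, whose deviations correlated at 0.03 and 0.20, and the labels do not say that a number pairs arrays. With the replicate number as a block, the counts were 4341 in spleen, 1848 between the marrows, 1598 marrow-corrected, 3476 against CA10 tumors, 15 in lineage-negative marrow and 1 in thymus. Array number and signal near background limit what dim genes such as Hoxa10 can show.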

Other observations

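Tumor 3 also carried a gene that was far lower in the other 5 tumors and in both wild-type spleens; it was picked after its values were seen, and no test was made. Cth, which encodes cystathionine gamma-lyase, was 10.39 in tumor 3 and 4.06 to 5.62 in the others, with 3.83 and 3.87 in wild-type spleen. Ms4a2 and Fcer1a, the beta and alpha chains of the high-affinity IgE receptor, were also high in this tumor only, among the 8 spleens compared. Its gamma chain, Fcer1g, which other myeloid cells also use, was 8.42 in tumor 3, 11.27 to 11.53 in the other 5 and 9.22 and 9.20 in wild-type spleen.

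Beyond the lists, the genes that varied most between tumors among those called included Olfm4, a neutrophil granule glycoprotein, at 5.71, 9.42 and 12.37 (wild-type 5.59 and 4.84), and Abca13, a transporter, at 4.40, 7.91 and 9.78 (wild-type 4.52 and 4.48). Dach2, a developmental cofactor, was 4.74, 7.44 and 9.28 in the tumors and 4.35 and 4.49 in wild-type spleen. Slc15a2, a peptide transporter, was 5.75, 7.10 and 10.45 against 10.50 and 10.76. Tmem97, which encodes the sigma-2 receptor, and Syce2, a meiotic gene, rose by 2.53 (adjusted p = 5.73e-04) and 2.49 (adjusted p = 0.00165). Both were also higher in NHD13 than in wild-type thymus by limma, by 0.97 (adjusted p = 0.0256) and 1.62 (adjusted p = 0.0405). Syce2 stood apart in tumor 3, at 12.34, and its spleen call was lost without wild-type spleen 2. Traf1, a signalling adaptor of activated lymphocytes, fell by 4.02 in spleen (adjusted p = 2.96e-05) and by 2.02 in thymus (0.0319). Scd1, a fatty acid desaturase, was 4.78, 5.17 and 6.82 in the tumors and 10.24 and 11.25 in wild-type spleen, a fall of 5.29 (adjusted p = 2.48e-04), and was 8.53 on average in CA10 tumors.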
